A study of Mus musculus with 117 samples.

Results

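The genes described here are 35 lysosomal genes, taken by name from the 27179 genes in the count files. The list is by name and function and its rule uses no measured value, although it was drawn up with earlier results of these data known. They comprise 13 proteases, 7 glycosidases and sulfatases, 6 genes of lipid handling, 5 membrane proteins, 2 subunits of the vacuolar proton pump (V-ATPase), the granulin precursor Grn and the transcription factor Tfeb. All 35 were found in the files and all were tested in both injury time courses. The V-ATPase subunit Atp6v0d2 had 6 to 19 counts per library in uninjured astrocytes and passed the low-count filter mainly through the injured groups.

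Libraries came from spinal cord of C57BL/6 mice in which Cre switches on a hemagglutinin tag on the ribosomal protein Rpl22 (RiboTag). Immunoprecipitation of the tag gave 70 astrocyte libraries, and the solution left behind gave 47 flow-through libraries, which hold mainly RNA of other cells. In Aldh1l1-CreERT2 mice, where tamoxifen in adults activates the tag in cells using the Aldh1l1 promoter, both kinds of library came from young adult females, uninjured (4 mice), at 2 d (5 mice) and at 5, 14, 28, 42 and 70 d (4 mice each) after a complete crush spinal cord injury (SCI). Males of this line gave both kinds at 5 and 14 d, 4 mice each. In 73.12 GFAP Cre mice (mGfap below), Cre acts from early life in cells using the mouse Gfap promoter and in their progeny. The mGfap line gave both kinds from 5 injured females (14 d) and 5 mice without injury at postnatal day 63 (P63), of which 3 are labelled male and 2 female. Younger uninjured mGfap mice gave astrocyte libraries alone, with 3 mice each for P3 and P7, 4 each for P0, P21 and P35, and 5 for P14. Tissue blocks taken after SCI hold the lesion core as well as the astrocyte border around it. The tag reports which cells used the promoter, and RNA of untagged cells can be carried along in an immunoprecipitation.

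Lysosomes are acidic organelles in which proteins, sugar chains and lipids delivered by endocytosis, phagocytosis and autophagy are broken down. Their enzymes are soluble hydrolases, membrane proteins such as Lamp1 form the wall and carry transport, and the V-ATPase keeps the lumen acid. Tfeb and related factors raise many of these genes together through the promoter motif CACGTG and its longer forms. Microglia and macrophages are rich in lysosomes and express several of these genes, Ctss and Atp6v0d2 among them, far above the level in resting astrocytes.

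The promoters show this motif directly, and they are printed because the injury responses described below are set beside Tfeb itself. RefSeq promoter windows from 250 bases before to 50 bases after the annotated start (GRCm38.p6) matched 28 of the 35 genes, and 10 of these 28 held CACGTG, which reads the same on both strands. These were Ctsa, Ctsd, Ctsf, Ctsl, Lgmn, Lamp1, Gaa, Gla, Glb1 and Mcoln1. Of all 32851 promoters 7.15% held it, and of the genes behind them 8.09%. Among 84 other lysosomal genes, listed to stand beside the 35, it was in 17 of 66 with a promoter entry. Adding a T in front (TCACGTG, which overlaps the shorter motif, searched on both strands) left 8 of the 28 genes. It left 4.29% of all genes with a promoter entry and 3.77% of all promoters. The palindrome TCACGTGA was in 4 of the 28, Ctsa, Ctsd, Gla and Mcoln1, beside 1.12% of all genes with a promoter entry and 0.974% of all promoters. The stretches below are on the strand of the gene with CACGTG in capitals, and that of Ctsd leaves out another copy further upstream.
Lamp1, chr8:13159090-13159161, + strand: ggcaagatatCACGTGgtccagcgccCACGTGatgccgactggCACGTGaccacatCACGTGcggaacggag
Ctsa, chr2:164833751-164833793, + strand: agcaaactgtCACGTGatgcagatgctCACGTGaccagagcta
Mcoln1, chr8:3500438-3500489, + strand: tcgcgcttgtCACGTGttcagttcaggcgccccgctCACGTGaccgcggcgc
Gla, chrX:134601184-134601242, - strand: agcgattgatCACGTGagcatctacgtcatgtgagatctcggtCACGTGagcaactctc
Ctsd, chr7:142387900-142387945, - strand: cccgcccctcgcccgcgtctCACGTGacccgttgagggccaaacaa
Ctsf, chr19:4855076-4855101, + strand: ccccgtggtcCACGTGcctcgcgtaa
Lamp1, the most abundant lysosomal membrane protein gene here, held 4 copies between 61 and 15 bases before its start. In astrocyte libraries at 5 d after SCI, Ctsa, Ctsd, Ctsl, Lgmn, Lamp1, Gla, Glb1 and Mcoln1 of these 10 were higher, Gaa was unchanged by test and Ctsf was lower. Of all genes 28.7% were higher and 28.1% lower at that time. Ctsd rose at every time after SCI and Ctsf fell at every time. A motif in these windows is a description of the letters and shows no binding.

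Totals ranged from 40710428 to 136008399 counts per library, with a median of 95831369, so counting error is small for every gene named here except Atp6v0d2 before injury. Astrocyte identity was checked with 12 marker genes, all 12 of which were enriched over flow-through libraries in the 7 Aldh1l1 conditions and at P63, and 11 of 12 at 14 d in the mGfap line. Genes listed as pan-myeloid markers moved strongly with injury within astrocyte libraries. Among them, the study reports that Tyrobp, Trem2 and Spi1 can be expressed by reactive astrocytes too, at lower levels than in other cells. It detected Tyrobp and Trem2 in reactive astrocytes also in single nuclei and as protein. The summed level of 14 pan-myeloid markers was 35.9 to 68.7 CPM (counts scaled to a common library size) in uninjured Aldh1l1 astrocyte libraries, 724 to 1508 at 2 d, 5240 to 6599 at 5 d, 3416 to 5002 at 14 d, 1550 to 2468 at 28 d, 1438 to 3198 at 42 d and 861 to 2217 at 70 d. All 14 were higher than uninjured at each of the 6 times and none was at 0. Their part in the changes of the lysosomal genes was not tested. In bulk libraries such as these, a change in the number of cells of a type and a change in RNA per cell cannot be told apart.

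In uninjured Aldh1l1 astrocytes, levels per kilobase of transcript ranged over several orders. Psap, the precursor of the saposins that present lipids to lysosomal enzymes, was highest at a mean of 1676 CPM per kilobase, before Lamp1 (625), the aspartic protease Ctsd (399), the tetraspanin Cd63 (334.9) and the cysteine protease Ctsb (232). At the low end stood Ctss (6.19), the cysteine protease of antigen presentation, Ctsk (2.03), the collagen-degrading cathepsin, Ctsc (0.607), which activates serine proteases of leukocytes, and Atp6v0d2 (0.0338). Together the 35 genes took 1.08% to 1.15% of all counts in these 4 libraries.

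After SCI 23 or more of the 35 genes were called in Aldh1l1 astrocyte libraries at each time, and from 5 d on most of those called were higher. A gene was called where edgeR's quasi-likelihood test gave a p under 0.01 after Benjamini-Hochberg adjustment over all 18205 genes tested. At 2 d 20 rose and 9 fell, against 30.2% of all genes higher and 29.9% lower. At 5 d 29 rose and 4 fell (28.7% and 28.1% of all genes), at 14 d 27 rose and 1 fell (24.5% and 22.8%), and at 28 d 25 rose and 1 fell (22.8% and 19.1%). At 42 d 23 rose and 2 fell (23.3% and 20% of all genes), and at 70 d 18 rose and 5 fell (23.9% and 21.5%). The median log2 fold change of the 35 from 2 to 70 d was 0.81, 2.10, 1.49, 0.84, 0.94 and 0.46 in turn, beside −0.04 and −0.02 for all genes at 2 and 5 d. The share of all counts taken by the 35 was 1.64% to 2.07% at 2 d, 5.93% to 6.69% at 5 d, 3.76% to 5.46% at 14 d and 1.48% to 2.16% at 70 d, above the uninjured range in every library.

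**Figure D1:**
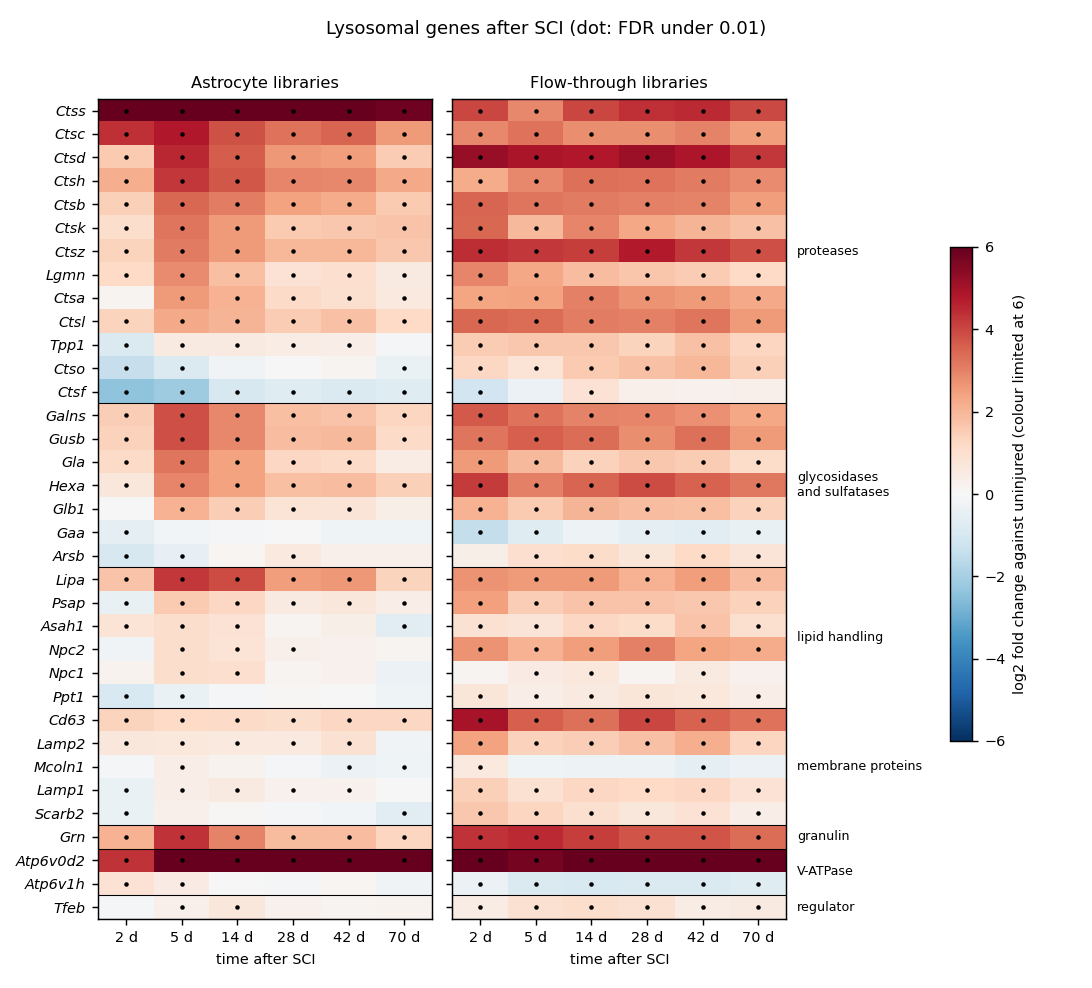
Fitted log2 fold change against uninjured (color) of the 35 lysosomal genes (listed by role) at each time after SCI in days, with dots where called, in astrocyte and flow-through libraries of Aldh1l1 mice, 4 to 5 mice a group. In astrocyte libraries 23 genes are highest at 5 d, whereas 18 are highest at 2 d in the flow-through.

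By time course in astrocyte libraries, 16 of the 35 were higher at all 6 times, 8 at some times and never lower, 6 higher at some and lower at other times, 4 lower at some times and never higher, and 1, Ctsf, lower at all 6. The 16 were 9 proteases (Ctsb, Ctsc, Ctsd, Ctsh, Ctsk, Ctsl, Ctss, Ctsz and Lgmn), Cd63, Hexa, Gusb, Galns, Lipa, Grn and Atp6v0d2, the last of which passed the filter through the groups where it is high. The highest signed log2 fold change fell at 5 d for 23 genes, and for 4 each at 14 and 28 d and 2 each at 2 and 42 d. The 4 at 28 d, Ctsf, Gaa, Arsb and Ppt1, were genes whose lowest point was at 2 d. How often all genes follow these time courses was not counted. From 2 to 5 d 30 genes rose and 1 fell (21.8% of all genes higher and 19.6% lower), from 5 to 14 d 6 rose and 11 fell (12.7% and 12.6%), and from 14 to 70 d 1 rose and 27 fell (14.5% and 15%). The 1 that rose from 14 to 70 d was Ctsf, a call lost when any of 6 libraries was left out.

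Of the 13 proteases 11 rose and 2 fell at 5 d (28.7% of all genes higher and 28.1% lower). Ctsd, the main lysosomal aspartic protease, was at 725, 766, 786 and 785 CPM in the 4 uninjured mice, at 1918 to 2757 in the 5 mice at 2 d, and at 17090, 18350, 18827 and 15202 at 5 d. At 70 d it was still at 1534, 1346, 3261 and 2657. No injured library overlapped the uninjured, and the 5 d libraries were above those of every other time. The log2 fold change of Ctsd was 4.50 ± 0.25 (SE) at 5 d (adjusted p = 9.6e-15, edgeR's quasi-likelihood test, Benjamini-Hochberg).

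Ctss started among the lowest of the proteases, at 10.8, 10.7, 6.97 and 7.40 CPM in uninjured mice. It was at 915, 474, 729, 558 and 520 CPM at 2 d and at 2913, 3261, 3344 and 2731 at 5 d. At 70 d the 4 mice split into a pair at 322.01 and 306 and a pair at 789 and 614. At 5 d the log2 fold change of 8.42 ± 0.38 (SE) was the largest of the proteases (adjusted p = 9.86e-16, edgeR's quasi-likelihood test). Ctss and Ctsk are neighbours on chromosome 3, 17398 bases apart, and moved by different amounts. Ctsk was at 7.16, 7.42, 2.36 and 1.37 CPM before injury and at 30.96, 45.7, 57.2 and 33.9 at 5 d, a log2 fold change of 3.19 ± 0.38. Its call at 2 d (log2 fold change 1.07, adjusted p = 0.00793, edgeR's quasi-likelihood test) was lost when any of 6 libraries was left out, and its groups at 2 d did not overlap.

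Ctsf and Ctso, also cysteine cathepsins, went the other way. Ctsf was at 147, 147, 147 and 163 CPM in uninjured mice and at 27.3, 29.8, 26.5, 29.2 and 30.1 at 2 d. It was at 35.4, 32.2, 31.4 and 39.4 at 5 d and at 85.9, 90.3, 96.9 and 92.4 at 70 d, so that all injured libraries lay below all uninjured ones. Ctsf fell with a log2 fold change of −2.40 ± 0.07 at 2 d and −0.73 ± 0.07 at 70 d (adjusted p = 1.86e-21 and 1e-09, edgeR's quasi-likelihood test). Ctso fell by 1.39 on the log2 scale at 2 d and by 0.89 at 5 d. It was not called at 14, 28 and 42 d (log2 fold changes −0.19, 0.01 and 0.18) and was lower again at 70 d (−0.39), a call lost without the library of mouse 2 at 70 d. Tpp1, the tripeptidyl peptidase deficient in a form of neuronal ceroid lipofuscinosis, fell by 0.89 at 2 d and was 0.53 higher at 5 d on the log2 scale.

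**Figure D2:**
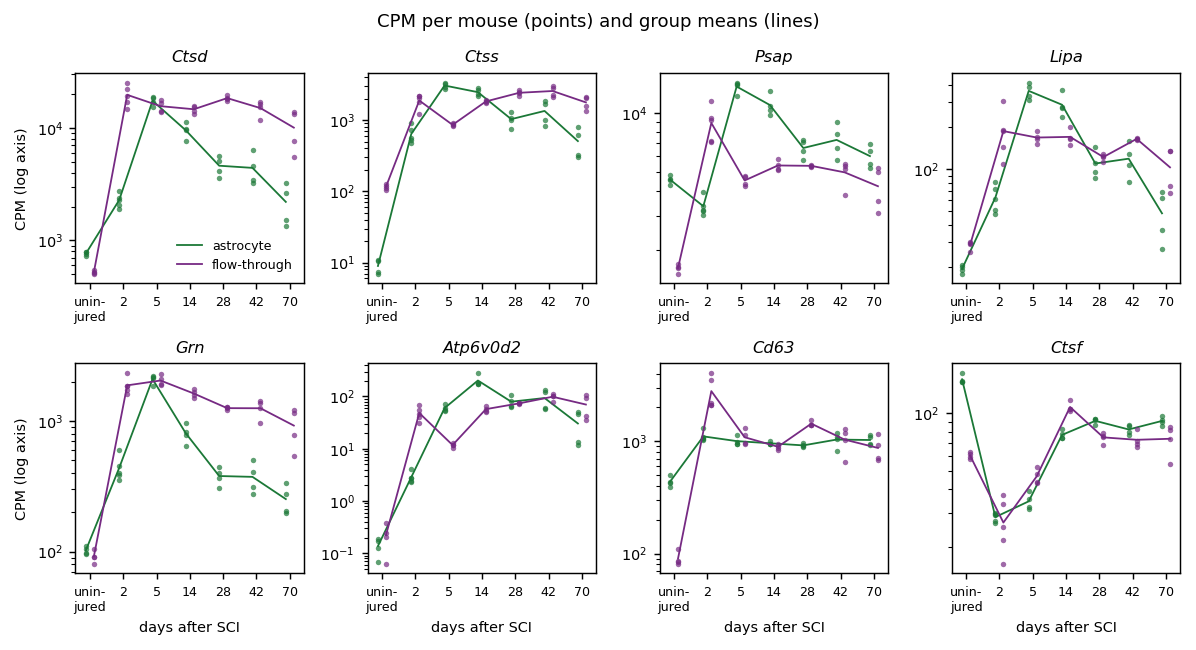
CPM on a log axis of lysosomal genes in each Aldh1l1 mouse (points) against time after SCI, with the mean of each group as a line, in astrocyte and flow-through libraries scaled separately. Ctsd reaches 15202 to 18827 CPM in astrocyte libraries at 5 d, while Ctsf lies at 26.5 to 30.1 at 2 d against 147 to 163 before injury.

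Among the 7 glycosidases and sulfatases 4 rose and 2 fell at 2 d (30.2% of all genes higher and 29.9% lower). At 5 d 5 rose and 1 fell (28.7% and 28.1%), and at 70 d 3 rose and none fell (23.9% and 21.5%). The number lower at 2 d lies near the share of all genes. The fall at 5 d, that of Arsb, was lost when either of 2 libraries was left out. Galns, which removes sulfate from keratan and chondroitin sulfate, was at 9.22, 10.6, 7.52 and 8.88 CPM in uninjured mice and at 142, 138, 137 and 120 at 5 d, with no overlap at any time. Galns had a log2 fold change of 3.89 ± 0.19 at 5 d (adjusted p = 6.21e-16, edgeR's quasi-likelihood test), close to that of the β-glucuronidase Gusb at 3.86 ± 0.19. Hexa, the α subunit of β-hexosaminidase, rose by 2.95 and Gla, the α-galactosidase, by 3.22 on the log2 scale at 5 d. Gaa, which degrades glycogen, was highest of the group per kilobase before injury and did not follow them. It was at 226, 257.2, 283 and 272 CPM in uninjured mice, at 173, 207, 168, 169 and 171 at 2 d and at 236, 237, 225 and 241.6 at 5 d. It fell at 2 d (log2 fold change −0.55 ± 0.09, adjusted p = 2.82e-06, edgeR's quasi-likelihood test) and was not called at any later time. Arsb, which removes sulfate from dermatan and chondroitin sulfate, was at 149, 189, 207 and 177 CPM before injury, at 83.4, 107, 101, 89.1 and 79.8 at 2 d, and at 316, 247, 289 and 230 at 28 d. All of its 2 d libraries lay below and all of its 28 d libraries above the uninjured, the log2 fold change being −0.97 ± 0.13 at 2 d and 0.58 ± 0.14 at 28 d (adjusted p = 1.29e-07 and 0.000705, edgeR's quasi-likelihood test).

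Among the 6 genes of lipid handling, 2 rose and 2 fell at 2 d, 5 rose and 1 fell at 5 d, and 2 rose and 1 fell at 70 d. The 2 d counts lie near the shares of all genes, 30.2% higher and 29.9% lower. Those shares were 28.7% and 28.1% at 5 d, and 23.9% and 21.5% at 70 d. Psap was at 4549, 4306, 4598 and 4856 CPM in uninjured mice and at 3961, 3037, 3374, 3216 and 3164 at 2 d. At 5 d it was at 14062, 13905, 14223 and 12241, so the 2 d libraries lay below and the 5 d libraries above all uninjured ones. Its log2 fold change was −0.45 ± 0.11 at 2 d and 1.57 ± 0.12 at 5 d (adjusted p = 0.000979 and 4.7e-12, edgeR's quasi-likelihood test). The call of Psap as higher at 70 d was lost when any of 5 libraries was left out. Lipa, the acid lipase that frees cholesterol from its esters, was at 19.97, 20.7, 19.04 and 17.9 CPM before injury and at 387, 414, 335.6 and 314.2 at 5 d (log2 fold change 4.22 ± 0.27). The cholesterol carriers Npc1 and Npc2 rose by 1.04 and 1.06 on the log2 scale at 5 d and neither was called at 2, 42 or 70 d. Ppt1, which removes fatty acids from proteins, fell to 206, 212, 215, 197 and 195 CPM at 2 d from 359, 380, 414 and 381. Its log2 fold change was −0.90 ± 0.08 at 2 d and −0.42 ± 0.08 at 5 d, and no call was made from 14 d on. Asah1, the acid ceramidase, was higher at 2, 5 and 14 d (log2 fold changes 0.81, 1.06 and 0.86) and lower at 70 d (−0.68 ± 0.14, adjusted p = 0.000154, edgeR's quasi-likelihood test).

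Of the 5 membrane proteins 2 rose and 2 fell at 2 d (30.2% of all genes higher and 29.9% lower). At 5 d 4 rose and Scarb2 was not called (28.7% and 28.1%), and at 70 d 1 rose and 2 fell (23.9% and 21.5%). Lamp1 was at 1373, 1381, 1419 and 1410 CPM in uninjured mice, at 1070, 1066, 1082, 1034 and 1030 at 2 d and at 1934, 2141, 2047 and 2039 at 14 d. At 70 d it was at 1379, 1440, 1378 and 1386, with 3 of 4 libraries inside the uninjured range. The log2 fold change of Lamp1 went from −0.40 ± 0.05 at 2 d to 0.55 ± 0.06 at 14 d (adjusted p = 1.07e-07 and 1.63e-09, edgeR's quasi-likelihood test). Cd63, a tetraspanin of late endosomes and exosomes, stayed up. It was at 498, 424, 390 and 429 CPM before injury, at 978, 935, 1143 and 949 at 5 d and at 932, 1134, 1091 and 941 at 70 d. Its log2 fold change lay between 1.07 and 1.34 at all 6 times and did not differ detectably from 14 to 70 d (log2 difference 0.10 ± 0.10). Lamp2 rose at 2 to 42 d, by 0.59 to 0.91 on the log2 scale, and was not called at 70 d (−0.21). Scarb2, the receptor that carries β-glucocerebrosidase to the lysosome, was at 162, 210, 234 and 207 CPM before injury and at 131, 104, 123 and 148 at 70 d, below all uninjured libraries (log2 fold change −0.68 ± 0.13, adjusted p = 4.97e-05, edgeR's quasi-likelihood test). Its call at 2 d (−0.39) was lost when any of 6 libraries was left out. Mcoln1, the calcium channel of the lysosome, rose by 0.41 at 5 d and was lower at 42 d (−0.34) and at 70 d (−0.26), the latter lost when any of 6 libraries was left out.

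Grn, whose protein is cut into granulins in the lysosome, was at 105, 110, 96.1 and 98.2 CPM in uninjured mice, at 599, 354, 448, 389 and 397 at 2 d and at 2119, 2205, 2182 and 1869 at 5 d. It was back at 205, 197, 333 and 274 at 70 d, above all uninjured libraries. The log2 fold change at 5 d was 4.35 ± 0.20 (adjusted p = 2.8e-16, edgeR's quasi-likelihood test), and between 5 and 14 d Grn fell by 1.38 on the log2 scale, the largest fall of the 35 in that step. Atp6v0d2, a V-ATPase subunit of osteoclasts and macrophages, was at 0.184, 0.171, 0.127 and 0.0693 CPM before injury and reached 173, 281, 178 and 175 at 14 d. With so few counts before injury no size of fold change is given for it. At 70 d its 4 mice were at 13.7, 11.6, 51.0 and 45.4 CPM, the same pair being low as for Ctss. Atp6v1h, the regulatory subunit of the pump, rose by 0.86 at 2 d and 0.48 at 5 d on the log2 scale and was not called later.

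Tfeb itself was called at 2 of the 6 times, 5 and 14 d, and was higher at both. Its log2 fold change at 14 d, given below, lay under the median of the 35 (1.49) but above that of Lamp1 (0.55). It was at 39.6, 37.4, 33.1 and 34.1 CPM in uninjured mice, at 35.1, 37.4, 33.5, 34.5 and 30.2 at 2 d and at 45.7, 44.7, 45.3 and 42.1 at 5 d. The highest group was 14 d, at 52.8, 62.2, 60.8 and 58.5, above every uninjured library. Its log2 fold change was 0.70 ± 0.10 at 14 d (adjusted p = 5e-07) and 0.30 ± 0.10 at 5 d (adjusted p = 0.00804, both from edgeR's quasi-likelihood test), the latter lost when any of 6 libraries was left out. At 2, 28, 42 and 70 d it was not called.

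The 84 other lysosomal genes, listed by textbook function, were counted in the same fits. In astrocyte libraries 40 rose and 26 fell at 2 d (30.2% of all genes higher and 29.9% lower) and 61 rose and 11 fell at 5 d (28.7% and 28.1%). At 14 d 59 rose and 9 fell (24.5% and 22.8%), and at 70 d 33 rose and 11 fell (23.9% and 21.5%). At 5 d 21 of 29 hydrolases rose and 3 fell, 13 of 20 membrane and transport genes rose and 5 fell, 12 of 15 V-ATPase genes rose and none fell, and 5 of 8 sorting genes rose and 1 fell. All 5 regulators on that list were higher at 5 d.

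In flow-through libraries most of the 35 had risen by 2 d and were still higher at 70 d. At 2 d 30 of the 35 rose and 3 fell (32.6% of 19207 genes tested higher and 32.9% lower), at 5 d 31 rose and 2 fell (27.7% and 21.8%), and at 14 d 32 rose and 1 fell (24.6% and 19.5%). At 28 d 30 rose and 2 fell (26.4% and 22.6%), at 42 d 31 rose and 3 fell (25.3% and 19.2%) and at 70 d 30 rose and 2 fell (21.8% and 15.7%). Altogether 29 were higher at all 6 times and 1, Atp6v1h, was lower at all 6, its call at 2 d being lost when any of 18 libraries was left out. The share of all genes higher or lower at all 6 times was not counted. The median log2 fold change was 2.45 at 2 d and 1.42 at 70 d. The 14 pan-myeloid markers summed to 468 to 544 CPM in uninjured flow-through libraries and to 8470 to 11691 at 2 d. Ctsd went from 527, 513, 547 and 507 CPM to 19180, 22067, 17070, 25082 and 14613 at 2 d, and Cd63 from 110, 85.3, 80.8 and 84.3 to 2087, 4045, 2188, 3521 and 2101. Both genes had no overlap between uninjured and 2 d libraries, with log2 fold changes of 5.23 ± 0.24 and 4.95 ± 0.24. Gaa fell at 2 d by 1.41 on the log2 scale and lay below every uninjured flow-through library at all 6 times. Mcoln1 was called higher at 2 d (0.60), when 2 of 5 mice were at 141 and 133 CPM and the other 3 at 65.6 to 70.1, overlapping the uninjured range of 56.3 to 67.1. That call was lost without uninjured mouse 2.

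The difference between the fractions was tested as an interaction over 19640 genes. At 2 d the log2 response was lower in astrocyte than in flow-through libraries for 25 of the 35 and higher for 4 (20.6% and 30.1% of all genes), and at 5 d higher for 13 and lower for 10 (17.7% and 10.9%). It was higher for 7 and lower for 16 at 14 d (14.5% and 10%), 3 and 22 at 28 d (15.5% and 12.9%), 3 and 21 at 42 d (12.6% and 10.7%) and 2 and 21 at 70 d (8.8% and 8.9%). With DESeq2 size factors the 5 d split turned to 11 higher and 13 lower. The median of all genes in the 2 d interaction was 0.297 on the log2 scale, so that a value near 0 lay below most genes. Ctss responded more in astrocyte libraries at every time, by 5.73 ± 0.35 on the log2 scale at 5 d (adjusted p = 8.38e-19, edgeR's quasi-likelihood test) and by 1.94 at 70 d. Cd63 responded less at every time, by −3.43 ± 0.22 at 2 d (adjusted p = 1.11e-18). For Ctsd and Grn no difference was detected at 5 d (−0.18 ± 0.30 and 0.09 ± 0.25), while Ctsd was less responsive at 2 d (−3.46 ± 0.30). Ctsf and Ctso also had lower responses at every time, with −1.56 ± 0.18 and −1.52 ± 0.18 at 5 d. In the same test all 14 pan-myeloid markers responded more in astrocyte libraries at 5 d, and 9 more and 3 less at 2 d.

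Enrichment in astrocyte over flow-through libraries was also tested within each condition. Before injury 21 of the 35 were enriched in astrocyte libraries and 4 depleted (30.7% of all genes higher and 31.3% lower). Ctso was the most enriched, at a log2 ratio of 3.94 ± 0.09, followed by Cd63 (2.64), Lamp2 (2.28), Tpp1 (2.27), Ctsl (2.11) and Scarb2 (2.03), and Ctss was the most depleted (−3.32 ± 0.16, adjusted p = 4.25e-09, edgeR's quasi-likelihood test). At 2 d 5 were enriched and 20 depleted (27.7% and 28.1%), at 5 d 27 and 1 (32.4% and 32%) and at 14 d 19 and 8 (30.7% and 31.7%). At 28 d 12 were enriched and 17 depleted (32% and 32.4%), at 42 d 11 and 12 (24.1% and 22.7%) and at 70 d 9 and 11 (22.6% and 23.1%). With each mouse as a block the 70 d count was 11 enriched and 19 depleted. The sign of Ctss turned from the uninjured ratio of −3.32 to 2.19 ± 0.10 at 5 d and to −1.48 at 70 d. Pan-myeloid markers, of which 13 of 14 were depleted and none enriched before injury (median log2 ratio −2.69), were 6 enriched and 3 depleted at 5 d (median 0.25). Ctso was enriched in all 9 conditions tested, by 1.30 to 3.94 on the log2 scale.

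**Figure D3:**
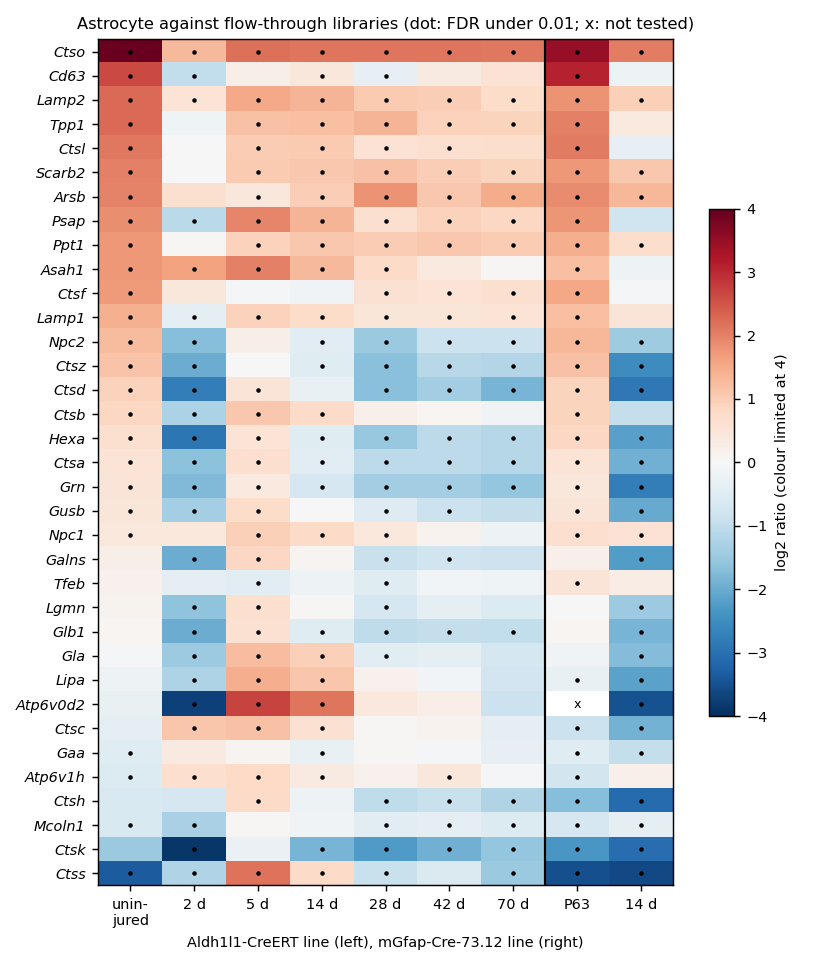
Log2 enrichment in astrocyte over flow-through libraries (color) for the 35 lysosomal genes, ordered by the uninjured value, in each line and condition, 4 to 5 mice each, with dots where called and x where not tested. Ctss goes from −3.32 in uninjured to 2.19 at 5 d in Aldh1l1 mice and is at −3.62 at 14 d in mGfap mice, while Ctso is above 0 in every column.

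The 2 Cre lines were compared before injury and at 14 d, in a fit over 17848 genes. In mGfap mice 20 of the 35 rose and 4 fell at 14 d against P63 (27.7% of all genes higher and 16.4% lower), the 20 including Atp6v0d2, which was near 0 counts at P63. The lines differed for only 2 of the 35 before injury, Ctsh and Gaa, both lower in mGfap mice (6.86% of all genes), and both calls were lost with the labelled sex as a covariate. At 14 d 26 of the 35 were lower and none higher in mGfap than in Aldh1l1 astrocyte libraries (11.4% and 12% of all genes), and the log2 response to injury was lower for 20 and higher for none (4.94% and 7.71%). In the line comparison at 14 d all 14 pan-myeloid markers were lower in mGfap mice, with a median log2 difference of −3.22 and a sum of 202 to 1497 CPM against 3501 to 5073, and the response of 5 of the 14 was lower. Oligodendrocyte markers went the other way, with 10 of 10 higher in mGfap mice. By role, 10 of 13 proteases, 6 of 7 glycosidases and sulfatases, all 6 genes of lipid handling and 2 of 5 membrane proteins were lower in mGfap mice at 14 d. What either list contributes to the difference between the lines was not tested.

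Among the called differences in response between the lines, that of Ctss was the largest. It was at 172, 53.3, 88.7, 435.2 and 65.9 CPM in the 5 mGfap mice at 14 d and at 2202, 2829, 2673 and 2381 in Aldh1l1 mice, from 8.21 to 10.1 and 7.00 to 10.8 before injury. The log2 difference at 14 d was −3.95 ± 0.47 and that of the responses −3.98 ± 0.64 (adjusted p = 2.46e-06 and 0.000192, edgeR's quasi-likelihood test). Ctsd was at 1777, 1273, 1603, 3621 and 1612 CPM in mGfap mice at 14 d, against 592 to 667 at P63 and 7744 to 11362 in Aldh1l1 mice at 14 d. Mouse 4 of the mGfap group at 14 d was the highest of the 5 for Ctsd, Ctss, Lipa and Atp6v0d2. Without it 19 of the 35 rose and 4 fell in mGfap mice, 24 were lower than in Aldh1l1 mice and 19 responses were lower. Lipa, at 27.5, 34.1, 32.4, 63.8 and 30.4 CPM against 242.1 to 373, responded less in mGfap mice by 2.93 ± 0.28 on the log2 scale. Gla was at 14.3, 12.2, 14.8, 21.9 and 13.6 CPM, overlapping its P63 range of 11.1 to 13.6, and its response was lower by 2.16 ± 0.21 (adjusted p = 8.65e-07, edgeR's quasi-likelihood test). Psap was not called in mGfap mice, at 4344, 3524, 3091, 3921 and 3393 CPM against 3995 to 4375 at P63 (log2 fold change −0.22 ± 0.10, adjusted p = 0.0742, edgeR's quasi-likelihood test), and Asah1 fell (−0.64 ± 0.14).

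For some genes no difference between the lines was detected at 14 d. Ctsf went from 126 to 132 CPM at P63 to 80.3, 83.1, 75.8, 69.7 and 80.2 at 14 d in mGfap mice, a log2 fold change of −0.73 ± 0.06, and did not differ between the lines at 14 d (−0.02 ± 0.07). Ctsk was at 20.96, 10.2, 13.02, 18.5 and 13.4 CPM in mGfap mice at 14 d against 2.05 to 3.18 at P63, and its response differed between the lines by −0.05 ± 0.51, an interval too wide to call them equal. Tfeb rose to 93.9, 54.1, 82.1, 84.4 and 73.3 CPM from 30.03 to 34.3, a log2 fold change of 1.28 ± 0.11 (adjusted p = 2.64e-08, edgeR's quasi-likelihood test). It was the highest group for Tfeb among the 4 compared, although the difference from Aldh1l1 mice at 14 d (0.37 ± 0.12, adjusted p = 0.0184) and that of the responses (0.54 ± 0.16, adjusted p = 0.0232) were not called. Atp6v0d2 had 0 to 4 counts per library at P63, so no fold change is given, and 4.93, 2.75, 4.67, 22.4 and 3.02 CPM at 14 d against 178 to 285 in Aldh1l1 mice. Between astrocyte and flow-through libraries of mGfap mice, 22 of the 35 were enriched and 8 depleted at P63 (32.6% and 35.2% of all genes, with Atp6v0d2 not tested), and 6 were enriched and 19 depleted at 14 d (23.3% and 23.6%). All 14 pan-myeloid markers were depleted at 14 d, with a median log2 ratio of −3.91.

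**Figure D4:**
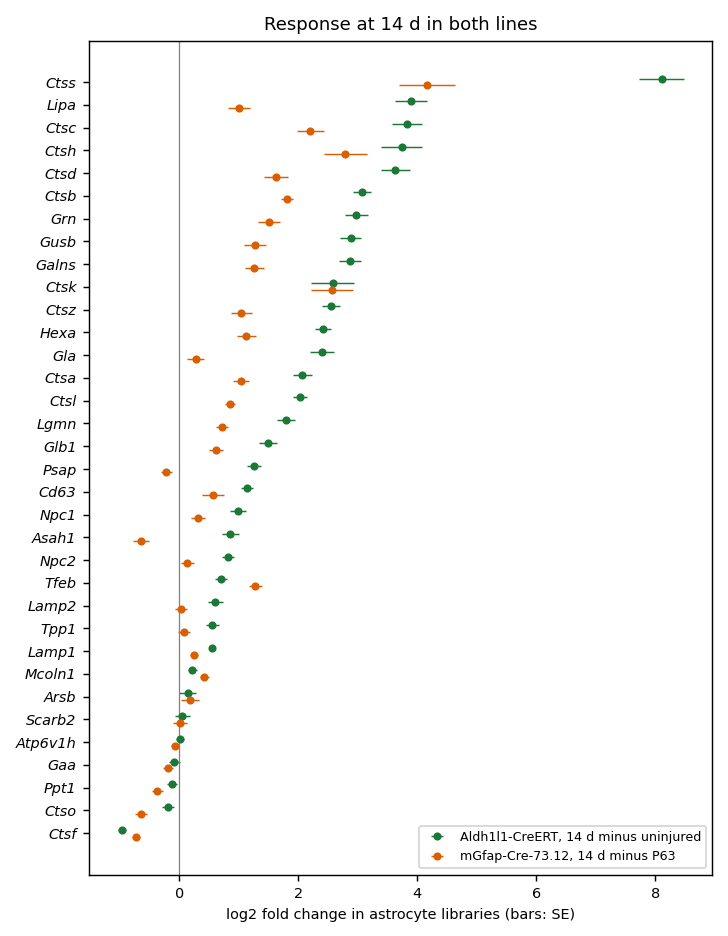
Fitted log2 fold change at 14 d after SCI in astrocyte libraries (horizontal axis, bars SE) of 34 lysosomal genes in Aldh1l1 mice against uninjured (green) and in mGfap mice against P63 (orange), 4 to 5 mice a group. Lipa is at 1.00 in mGfap mice, far left of its Aldh1l1 point, whereas the points of Ctsk overlap and Tfeb is further right in mGfap mice (1.28). Atp6v0d2 is left out for its few counts before injury.

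Across postnatal ages in uninjured mGfap mice, most of the 35 rose, while Ctsc, Ctsk, Gusb, Glb1, Lipa, Grn and Npc1 fell. From P0 to P63 21 rose and 7 fell (25.1% of 18041 genes tested in each direction). The steps gave 11 higher and 4 lower from P0 to P7 (12.5% and 7.54% of all genes), 14 and 3 from P7 to P21 (8.01% and 7.33%) and 4 and 1 from P21 to P63 (3.8% and 5.42%). With only the 2 ages of a step in the fit, P0 to P7 gave 2 higher and 1 lower. P21 to P63 gave 6 higher and 6 lower in that way. Of the 84 other lysosomal genes 39 rose and 9 fell from P0 to P63. By role, 9 proteases rose and 2 fell from P0 to P63, 4 glycosidases and sulfatases rose and 2 fell, 3 genes of lipid handling rose and 2 fell, and 3 membrane proteins rose and none fell. Npc2 had the largest rise, from 141, 158.3, 162 and 164 CPM at P0 to 260, 280 and 286 at P7 and 487, 445, 459, 476.9 and 415 at P63. All libraries from P7 on lay above those of P0, and the log2 fold change from P0 to P63 was 1.55 ± 0.08 (adjusted p = 3.12e-15, edgeR's quasi-likelihood test). Ctso and Ctsf, which fell after SCI, rose with age by 1.47 ± 0.13 and 1.36 ± 0.11 on the log2 scale. Ctsf was at 64.4, 58.1, 42.0 and 57.3 CPM at P0 and at 143, 145.2, 143, 144 and 138 at P63. Psap (1.25), Lamp1 (0.88) and Tfeb (0.63) rose as well.

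Ctsc, among the genes with the largest rise after SCI, had the largest fall with age. It went from 77.1, 68.5, 110 and 57.2 CPM at P0 to 44.3, 39.7 and 36.9 at P7, 9.39, 13.03, 11.7 and 11.7 at P21 and 3.26, 6.46, 4.58, 3.92 and 5.58 at P63, a log2 fold change of −4.04 ± 0.22 (adjusted p = 1.18e-14, edgeR's quasi-likelihood test). Ctsk fell by 1.46, Gusb by 1.12, Glb1 by 0.95, Lipa by 0.60, Grn by 0.56 and Npc1 by 0.40 on the log2 scale. Ctss did not change detectably from P0 to P63 (0.45 ± 0.28, adjusted p = 0.164, edgeR's quasi-likelihood test). Stroma markers fell over the same ages, from a sum of 2088 to 4686 CPM at P0 to 161 to 247 at P63, and 6 of 6 were called lower. Pan-myeloid markers summed to 38.7 to 123 CPM at P0 and 28.7 to 37.8 at P63, with 3 of 14 called lower. Their part in the falls with age was not tested. The P0 mice are labelled male and each other age holds both sexes, and 21 rose and 7 fell also with the labelled sex as a covariate. With library totals in place of scaling factors, the median of all genes from P0 to P63 moved by −0.49 on the log2 scale and the counts were 14 higher and 9 lower. Lamp2 and Ctsa then turned from higher to lower.

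**Figure D5:**
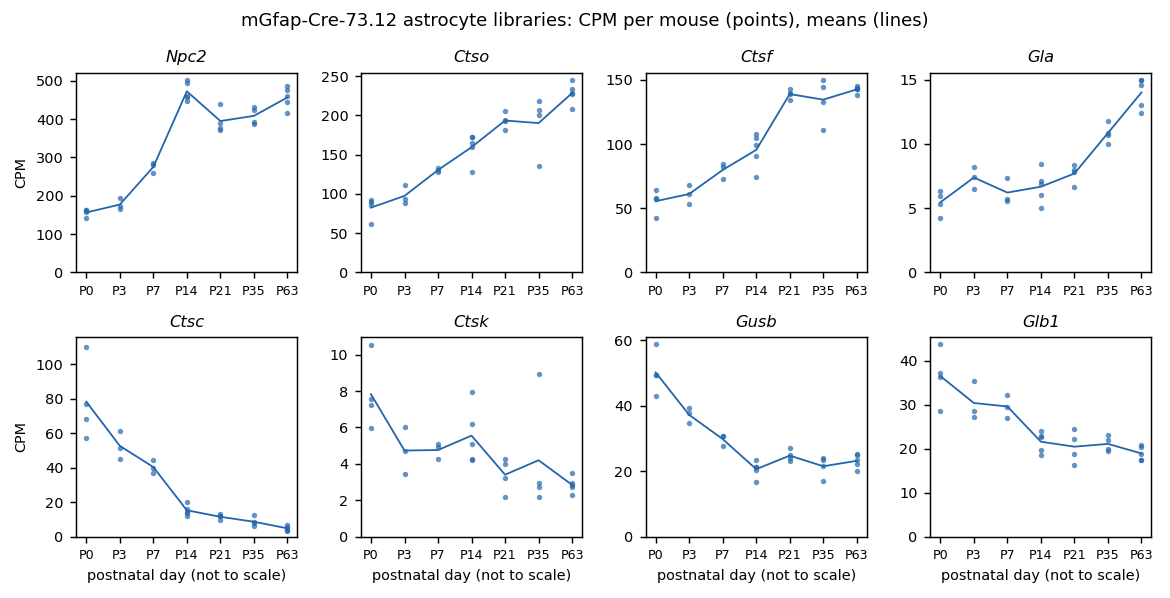
CPM in each uninjured mGfap mouse (points) from P0 to P63 for lysosomal genes that rose or fell with age, astrocyte libraries, group means as lines. Ctsc falls from 57.2 to 110 CPM at P0 to 3.26 to 6.46 at P63, while Npc2 rises from 141 to 164 to 415 to 487.

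The sexes were compared at 5 and 14 d in Aldh1l1 astrocyte libraries, with time as a covariate. None of the 35 differed at an adjusted p under 0.01 in edgeR's quasi-likelihood test, beside 9 of 17639 genes called (0.051%). None had an unadjusted p under 0.05 in that test, beside 583 of the 17639 genes. Ctsk showed the widest spread, at 37.1, 31.9, 218 and 44.2 CPM in the 4 males at 5 d against 30.9 to 57.2 in females, with a log2 difference of 0.38 ± 0.37. Male mouse 3 alone lay outside the female range for Ctsk. Ctss overlapped between the sexes at 5 d, at 2405, 2603, 4478 and 3387 CPM in males and 2754 to 3346 in females.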

How the data were processed

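Counts per gene were deposited by the authors, who ran Trimmomatic for trimming, HISAT2 for alignment (mm10) and featureCounts for counting, per the study's methods and the submitters' processing notes. The counts of 117 libraries and 27179 genes were used as deposited, and no 2 libraries were identical. The 35 genes, the 84 other lysosomal genes and the marker lists were chosen with earlier results of these data known. Libraries were scaled by TMM, filtered with filterByExpr and tested with edgeR 4.0.16 in R 4.3.3 (robust quasi-likelihood, Benjamini-Hochberg over all genes of a fit, adjusted p under 0.01). DESeq2 1.42.0 served as an alternative. CPM were scaled within each fit. Values after ± are SE of the log2 fold change, worked out as its absolute value divided by the square root of the test's F statistic. Astrocyte and flow-through time courses, the lines at 14 d and uninjured, the ages and the sexes were fitted separately, each fit holding all its groups. Values in every mouse are given for genes picked by level, by fold change at 5 d or by name within each role group, and elsewhere for the largest called changes. Counts are from whole libraries, and p-values measure the spread between mice. In the enrichment and interaction tests the 2 libraries of each mouse were entered as if independent, and the mouse as a block was an alternative. The fits were tested on simulated data.

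Same-numbered astrocyte and flow-through libraries of a condition came from the same mouse. Over 39 such pairs the correlation of their deviations from the group means was −0.029 to 0.533, with a median of 0.107. Across groups a number was only a number. One flow-through library of the 5 d female group carries a male label against its title and was kept with its title. Without it 31 of the 35 were higher and 2 lower in flow-through libraries at 5 d, as with it. No protein sequences were used here.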

Additional observations from a re-analysis of the deposited data

Results flagged for a closer look

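The response of the 35 lysosomal genes to injury differed between astrocyte and flow-through libraries, by the interaction test, for 29 genes at 2 d and 23 at 5 d, and later for 23 (14 d), 25 (28 d), 24 (42 d) and 23 (70 d). By the same test, 30.1% of all 19640 genes responded more in astrocyte libraries and 20.6% less at 2 d. Shares of all genes responding more/less then became 17.7%/10.9% (5 d), 14.5%/10% (14 d), 15.5%/12.9% (28 d), 12.6%/10.7% (42 d), 8.8%/8.9% (70 d). The response of 20 of the 35 genes differed between the 2 Cre lines at 14 d. Of all 17848 genes in that fit, 7.71% responded more in mGfap mice, while 4.94% responded less. Male flow-through libraries entered no comparison, and with library totals as the scale 30 of the 35 lay above all uninjured female flow-through libraries in every male library at 5 d and 32 at 14 d, beside 26% and 25.2% of all genes.

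For 16 genes picked by level, by fold change at 5 d or by name, 30 of 352 groups of 4 or 5 libraries held 1 library far from the rest by Dixon's criterion, which chance alone meets in about 1 group in 20. Values are CPM, with the nearest library in brackets. In Aldh1l1 astrocyte libraries the highest values that stood apart were Ctsf at 163 (147) before injury, Lamp1 at 1440 (1386) at 70 d and Cd63 at 1302 (1086) at 2 d and 1009 (943) at 14 d. Gaa reached 207 (173) at 2 d, and Atp6v0d2 reached 4.01 (2.76) at 2 d and 281 (178) at 14 d. Psap at 12241 (13905) and Ppt1 at 266 (293) were low in 1 library at 5 d. In males at 5 d Ctsk reached 218 (44.2).

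In flow-through libraries before injury, Cd63 reached 110 (85.3), Galns 10.9 (9.72) and Ppt1 152 (148). At later times Cd63 reached 1540 (1405) at 28 d and Ctsk 94.2 (62.0) at 42 d, while Galns was low at 47.7 (70.0) at 42 d and Arsb at 91.0 (100.4) at 28 d.

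In mGfap mice at 14 d, mouse 4 stood apart for Ctsd at 3621 (1777), Lipa at 63.8 (34.1) and Atp6v0d2 at 22.4 (4.93), and mouse 1 for Cd63 at 1423 (759). At P0 Ctsd reached 516 (438.3), Tfeb 32.2 (20.3) and Atp6v0d2 0.614 (0.0158). At P14 Tfeb was low at 45.9 (53.4) and Atp6v0d2 reached 0.229 (0.0609), and at P21 Cd63 reached 496 (428). At P35 mouse 1 was high for Ctsk at 8.95 (2.93) and Ctss at 45.4 (15.1), and Arsb was low in 1 mouse at 137 (226).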

How the results depend on the processing

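Over 39 comparisons, 292 of 302 recomputed counts of called lysosomal genes lay within 1.5 times the reported one, and 1041 of 1061 with 1 library left out. The library left out could be any of the fit, also one of a group outside the comparison. Such a library bears on the result only through the shared spread, scaling and filter, so this total is a weak check. The 16 fits of the sexes with 1 library left out also count as agreeing, at 0 calls. The exceptions were in 3 comparisons. Between the lines before injury, 2 genes were called, against 4 at an adjusted p under 0.05, 1 each with DESeq2 size factors, library totals, no low-count filter, the stricter filter or the replicate block, 0 with the labelled sex, and 0 to 3 with 1 library left out (0 without Aldh1l1 uninjured mouse 2 or mGfap P63 mouse 1, 3 or 5). From P0 to P7 the 15 calls became 3 when these ages were fitted alone. From P21 to P63 the 5 calls became 8 at an adjusted p under 0.05, 12 with these ages alone, and 3 to 6 with 1 library left out (3 without P21 mouse 2, 3 or 4, or P63 mouse 1, 2, 3 or 4). The cause was not tested. The replicate block moved the 70 d enrichment from 20 to 30 calls, and beside the 2 to 1 between the lines before injury it moved no count by over 1.5 times.

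Library totals without scaling factors shifted the median of all genes, by 0.23 at 2 d in astrocyte libraries, where 21 genes were higher and 6 lower and the share of higher calls over all genes went from 50.2% to 61.5%. In uninjured enrichment the shift was −0.58, the share went from 49.5% to 26.9% and the counts were 16 and 11. There Ctsa (−0.03), Gusb (−0.11), Npc1 (−0.15) and Grn (−0.06) turned below 0, as did Ctsa (−0.21) and Lamp2 (−0.09) from P0 to P63, where the share went from 50% to 27.5%. Limits are set by 3 to 5 mice a group, and for Atp6v0d2 by its few counts before injury.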
